A study of Mus musculus with 20 samples.

Results

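The T-box transcription factors T-bet (gene Tbx21) and Eomesodermin (gene Eomes) were followed through an RNA-seq series on mouse CD8+ T cells that compared interleukin-21 with 21h10, a de novo designed protein that mimics it. The rows with the symbol Tbx21 or Eomes were taken, and where a symbol had more than 1 transcript the longest was used, which gave 2 of the 23992 genes in the tables. All 20 libraries came from wild-type C57BL/6J splenic CD8+ T cells that had been pre-activated for 48 h with antibodies to CD3 and CD28, rested overnight and then cultured for 24 h with murine IL-21 (mIL-21), with 21h10 or without cytokine (unstimulated). Experiment 1 held an unstimulated group and both cytokines at 100 pM and 1 nM, experiment 2 held its own unstimulated group and both cytokines at 10 nM and 100 nM, and each group had 2 libraries, so dose range and experiment cannot be told apart. The study's methods say in general that its sequencing replicates were independent, from separate preparations of tissue or from separate donors. Its supplement calls the libraries of experiment 1 biological duplicates. The labels do not say for these libraries which culture or animal each came from. The p-values for single genes rest on the spread between the 2 libraries of a group, pooled over the groups fitted together and in part over genes.

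T-bet and Eomes share the T-box, a DNA-binding domain that reads a common core motif, and both take part in the cytotoxic programme of CD8+ T cells. T-bet is best known for driving short-lived effector cells downstream of the T cell receptor, interferon-γ and IL-12, while Eomes is associated with memory cells, with IL-15 responsiveness and, at high levels, with chronically stimulated cells. The balance of the pair is therefore often read as a coordinate of effector against memory fate. IL-21 signals through its own receptor chain and the common γ chain, with JAK1 and JAK3 and mainly STAT3 behind them.

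Tbx21 lies on the minus strand of chromosome 11 (GRCm38, 97098071 to 97115331) and Eomes on the plus strand of chromosome 9 (118478212 to 118486132). The bases just upstream of their start sites are shown because the genes share a protein family but gave unlike dose patterns, and the windows differ in make-up. Whether the make-up bears on the dose patterns was not tested. Each run is 250 bases, 5′ to 3′ on the gene's own strand and ending at the base before the RefSeq start (GRCm38.p6), and capitals mark the matches to the motifs searched.
Tbx21 promoter, chr11:97115332-97115581, minus strand: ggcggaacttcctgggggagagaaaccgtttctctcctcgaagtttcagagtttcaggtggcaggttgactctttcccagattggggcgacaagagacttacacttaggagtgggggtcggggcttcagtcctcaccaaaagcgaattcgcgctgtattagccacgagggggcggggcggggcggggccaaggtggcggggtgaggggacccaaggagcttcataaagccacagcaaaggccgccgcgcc
Eomes promoter, chr9:118477939-118478188, plus strand: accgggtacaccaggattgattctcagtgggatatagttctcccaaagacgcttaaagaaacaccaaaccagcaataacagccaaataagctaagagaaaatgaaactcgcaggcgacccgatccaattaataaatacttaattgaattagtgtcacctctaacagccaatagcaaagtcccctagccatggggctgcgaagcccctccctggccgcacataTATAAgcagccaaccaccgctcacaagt

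The Tbx21 window was 60.8% G and C with 16 CpG dinucleotides and the Eomes window 46.4% with 8, against a median of 52.4% G and C over 32851 RefSeq promoters. Searched on both strands, the STAT motif TTCNNNGAA, the T-box core TCACACC and the RUNX core TGTGGT had no match in either window. They occurred in 7.02%, 3.33% and 14.0% of all promoters. The TATA motif TATAA, found in 22.8% of promoters, matched once, in Eomes, with its first base 28 bases upstream of the RefSeq start. The Eomes locus given above, from GENCODE, begins further downstream, at 118478212, so this distance holds for the RefSeq start only.

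The tables list 1 transcript for Tbx21 (NM_019507) and 2 for Eomes, NM_010136 of 3715 bases and NM_001164789 of 3658 bases. In the GENCODE annotation the Eomes pair differs inside the coding sequence at the first bases of exon 6, the last of 6 exons, where the longer form holds 57 more bases, a multiple of 3. This stretch is shown because it alone separates the reads of the 2 forms.
Eomes exon 6 start, chr9:118484274-118484330, plus strand: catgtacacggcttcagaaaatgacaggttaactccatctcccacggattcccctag

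The reads counted for the longer form and not for the shorter were 7 to 74 per library, or 0.326% to 2.49% of the Eomes reads with a median of 1.5%, while the 57 bases make up 1.53% of the length. The rule by which reads were assigned to transcripts is not given in the sources used here, so these shares are no measure of splicing. The last Eomes exon also overlaps the antisense gene Gm33460, which covers 2.84% of the exonic bases of Eomes, and counting by strand is not stated. No gene overlaps Tbx21, and neither gene has a near-identical copy outside that overlap.

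Reads on genes ranged from 36829350 to 94079673 per library in experiment 1 and from 27074399 to 43303144 in experiment 2, and both genes were well covered, with 1900 to 7446 reads for Tbx21 and 750 to 6683 for Eomes. Levels are given in RPKM, the reads of a transcript scaled to its length and to the mapped reads of the library, which allows the genes to be compared with each other. CD8+ T cell identity was plain in every library, with a summed RPKM of 880 to 1388 over Cd8a, Cd8b1, Cd3d, Cd3e and Cd3g. The 3 CD4 T cell markers summed to 0.639 to 1.55 RPKM. The 5 NK cell markers, which matter here because NK cells also express both factors, summed to 6.79 to 16.7 RPKM, most of it Klre1. Klra4 reached 1.93 RPKM and Klra8 0.749, while Ncr1 and Klrb1c stayed at or below 0.265 RPKM.

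Tbx21 was the steadier gene, at 16.7 to 29.4 RPKM across the 20 libraries. In experiment 1 the unstimulated libraries held 26.3 and 26.6 RPKM of Tbx21. With mIL-21 they held 27.1 and 25.5 at 100 pM and 20.9 and 22.6 at 1 nM. With 21h10 the order of the doses was the opposite, at 20.6 and 21.5 RPKM with 100 pM and 29.4 and 26.9 with 1 nM. The groups thus fell into a lower pair, 100 pM 21h10 and 1 nM mIL-21, whose libraries overlapped, and an upper set of unstimulated cells, 100 pM mIL-21 and 1 nM 21h10.

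In experiment 2 the unstimulated libraries held 20.4 and 16.7 RPKM of Tbx21, the widest gap between duplicates of this gene. The values were 20.6 and 22.6 with 10 nM mIL-21, 21.5 and 21.3 with 100 nM mIL-21, 21.6 and 21.8 with 10 nM 21h10 and 19.5 and 18.2 with 100 nM 21h10. Libraries of 100 nM 21h10 overlapped those of unstimulated cells, and the other 3 treated groups lay above both, all within the range of 10 nM mIL-21. Across all 10 libraries the highest Tbx21 value was 1.36 times the lowest, against 1.43 times in experiment 1.

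Eomes covered a wider range, 4.40 to 14.6 RPKM in experiment 1 and 8.59 to 44.0 in experiment 2, or 3.31 and 5.12 times from lowest to highest. In experiment 1 the unstimulated libraries held 10.3 and 10.6 RPKM of Eomes. They held 14.0 and 14.6 with 100 pM mIL-21 and 7.95 and 7.61 with 1 nM mIL-21. With 21h10 they held 8.60 and 9.20 at 100 pM and 4.57 and 4.40 at 1 nM. No 2 neighbours in this order overlapped, from 1 nM 21h10 as the lowest group, through 1 nM mIL-21, 100 pM 21h10 and unstimulated cells, to 100 pM mIL-21 as the highest.

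In experiment 2 the Eomes values of unstimulated cells were 12.1 and 13.1 RPKM. Both mIL-21 groups lay below them, at 8.89 and 8.59 with 10 nM and 8.60 and 9.05 with 100 nM, and overlapped each other. Both 21h10 groups lay above them, at 13.7 and 14.3 with 10 nM and at 39.6 and 44.0 with 100 nM. The 21h10 libraries at 100 nM stood far above all other 18 and were the only 2 of 20 in which Eomes exceeded Tbx21 per length.

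**Figure D1:**
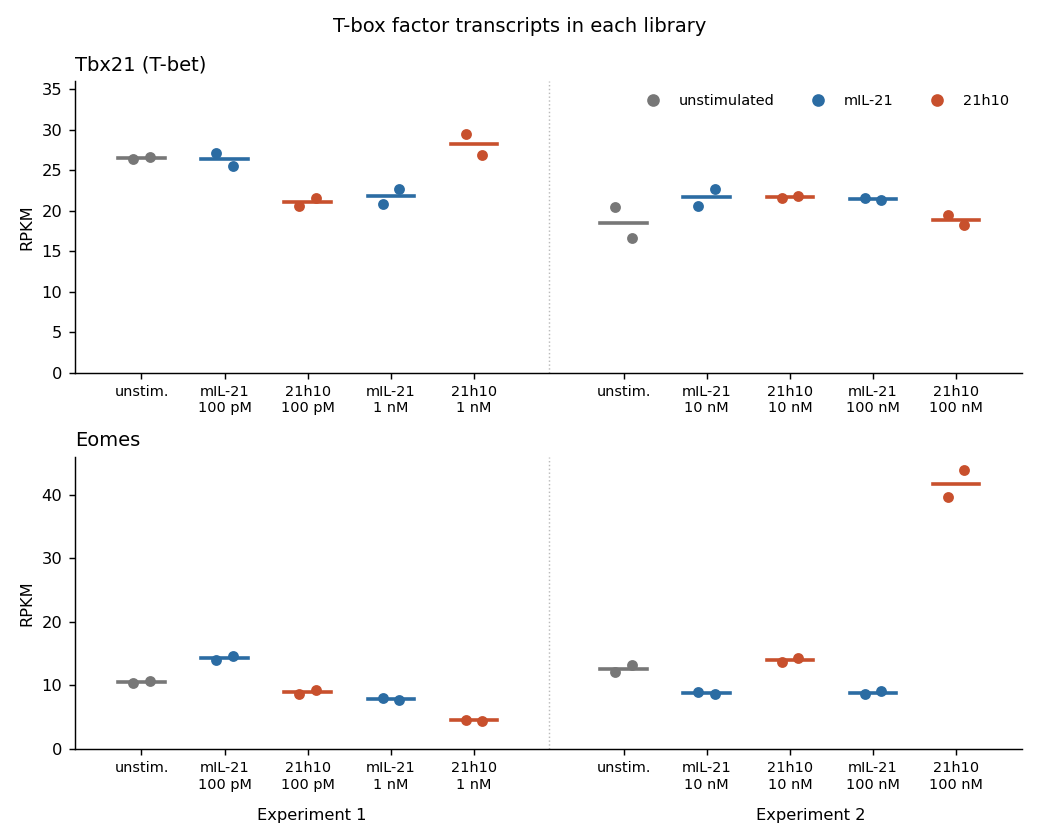
RPKM of Tbx21 (upper panel) and Eomes (lower panel) in each of the 20 libraries; points are libraries, bars are means of 2, grey is unstimulated, blue mIL-21 and orange 21h10, and the dotted line separates the experiments. Tbx21 stays between 16.7 and 29.4 RPKM, while Eomes falls to 4.40 with 1 nM 21h10 and reaches 44.0 with 100 nM 21h10.

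The first question of the design was how the designed protein differed from mIL-21 at the same dose. Eomes differed at all 4 doses and in opposite directions in the 2 experiments: with the designed protein it was lower at 100 pM and at 1 nM and higher at 10 nM and at 100 nM. Tbx21 was lower at 100 pM and higher at 1 nM, and no difference passed the test at 10 nM or 100 nM. Fold changes here are log2 values on TMM-scaled counts, and p-values come from the quasi-likelihood test of edgeR, adjusted by Benjamini and Hochberg's method over all genes of an experiment, with 0.05 as the threshold.

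At 100 pM, Eomes was 1.49-fold lower with 21h10 (log2 fold change -0.58, standard error 0.0525, edgeR adjusted p = 1.8e-07). Tbx21 was 1.17-fold lower (log2 fold change -0.22, standard error 0.0581, edgeR adjusted p = 0.00628). Of 13974 genes tested, 38.6% passed the threshold at this dose, so that both genes passed is not unusual. The Tbx21 call was lost without mIL-21 replicate 1 (edgeR adjusted p = 0.0878) or without 21h10 replicate 2 (0.0510) of this dose.

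At 1 nM the genes moved apart. Eomes was 1.68-fold lower with 21h10 (log2 fold change -0.75, standard error 0.0585, edgeR adjusted p = 2e-08) and Tbx21 was 1.33-fold higher (log2 fold change 0.41, standard error 0.0588, edgeR adjusted p = 2.5e-05), where 37.7% of genes passed. The effect on Tbx21 differed between the 2 doses by 0.64 on the log2 scale (standard error 0.0827, edgeR adjusted p = 4.2e-05), a test that 18.4% of genes passed. For Eomes this difference was -0.17 (95% interval -0.34 to -0.01) and did not pass (edgeR adjusted p = 0.146).

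At 10 nM, Eomes was 1.71-fold higher with 21h10 (log2 fold change 0.77, standard error 0.0996). In edgeR it was the 1 gene of 13772 past the threshold there (edgeR adjusted p = 0.0136), 0.00726% of those tested, with 1208 at an unadjusted p under 0.05. DESeq2 called 13 genes there, Eomes among them. With limma on log2(RPKM + 1) Eomes did not pass (limma adjusted p = 0.111). The call was also lost without mIL-21 replicate 1, mIL-21 replicate 2 or 21h10 replicate 2 of that dose (edgeR adjusted p = 0.0528, 0.621 and 0.545), although the log2 fold change stayed between 0.71 and 0.83 whichever library was left out. Tbx21 differed by 0.10 (95% interval -0.09 to 0.28, edgeR adjusted p = 0.757).

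At 100 nM, Eomes was 5.01-fold higher with 21h10 (log2 fold change 2.32, standard error 0.102, edgeR adjusted p = 1.4e-09), the second smallest p of all 13772 genes, of which 8.52% passed. Tbx21 differed by -0.11 (95% interval -0.29 to 0.08, edgeR adjusted p = 0.507). The effect on Eomes was larger at 100 nM than at 10 nM by 1.55 on the log2 scale (standard error 0.140, edgeR adjusted p = 2.3e-05), where 0.922% of genes passed. For Tbx21 the same difference was -0.20 (95% interval -0.47 to 0.06, edgeR adjusted p = 0.781).

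The turn of direction between experiments was tested after the values had been seen, in a fit of all 20 libraries. The mean effect of 21h10 against mIL-21 on Eomes was higher in experiment 2 by 2.18 on the log2 scale (standard error 0.0794, edgeR adjusted p = 2.3e-14), a test that 25.5% of genes passed. For Tbx21 it differed by -0.13 (95% interval -0.28 to 0.03, edgeR adjusted p = 0.216).

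**Figure D2:**
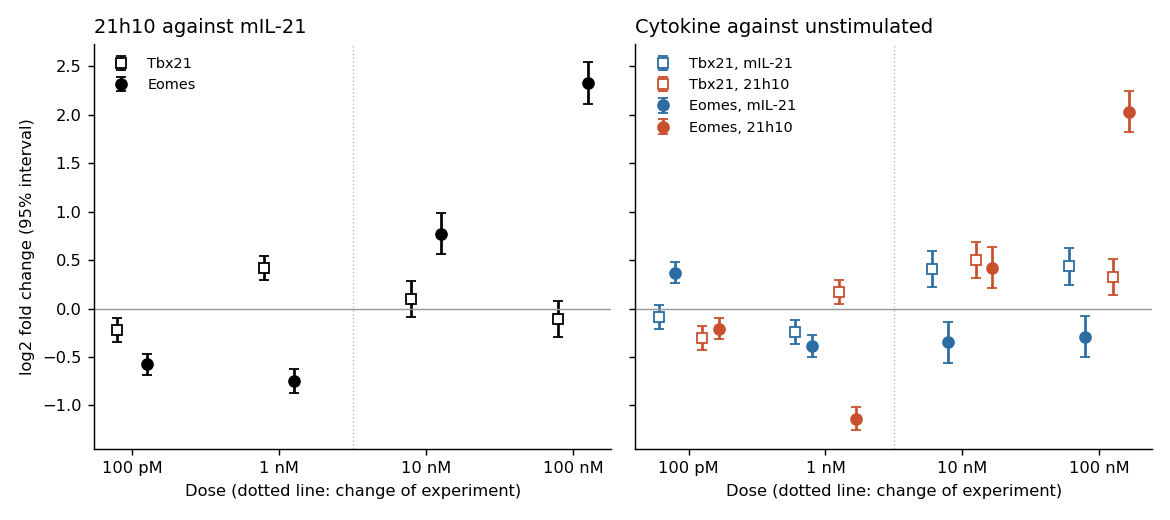
Log2 fold changes with 95% intervals from edgeR for Tbx21 (open squares) and Eomes (filled circles): left, 21h10 against mIL-21 at each dose; right, each cytokine against the unstimulated cells of its experiment (blue mIL-21, orange 21h10). On the left Eomes goes from -0.58 and -0.75 to 0.77 and 2.32, while Tbx21 stays between -0.22 and 0.41.

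A further question was how each cytokine changed the genes relative to cells left without it; the 4 comparisons of an experiment share their unstimulated libraries. Most genes changed in these comparisons, 77.7% and 80.1% of those tested with mIL-21 and 81.6% and 80.3% with 21h10 at the lower and higher dose of experiment 1, and 46.2% at both mIL-21 doses and 50.1% and 50.8% with 21h10 in experiment 2, so a call alone says little about either gene. Eomes rose with 100 pM mIL-21 (log2 fold change 0.37, edgeR adjusted p = 4.3e-06) and fell with the same cytokine at 1 nM (-0.39), at 10 nM (-0.35) and at 100 nM (-0.29, edgeR adjusted p = 0.0245). With 21h10 it fell at 100 pM (-0.21) and 1 nM (-1.14, 2.2-fold lower) and rose at 10 nM (0.42) and 100 nM (2.03, 4.09-fold higher). With library sizes taken from all mapped reads and no TMM scaling, the value for 10 nM 21h10 was 0.15 and did not pass (edgeR adjusted p = 0.168).

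The fall of Eomes with 10 nM mIL-21 did not pass without unstimulated replicate 2 or mIL-21 replicate 2, and that at 100 nM did not pass without unstimulated replicate 2 or mIL-21 replicate 1 (edgeR adjusted p up to 0.0838 and 0.169).

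Tbx21 changed less. In experiment 1 it fell with 100 pM 21h10 (log2 fold change -0.31, edgeR adjusted p = 9.6e-05) and 1 nM mIL-21 (-0.24, edgeR adjusted p = 0.00102) and rose with 1 nM 21h10 (0.17, edgeR adjusted p = 0.0112). It differed by -0.08 with 100 pM mIL-21 (95% interval -0.21 to 0.04, edgeR adjusted p = 0.188). The rise with 1 nM 21h10 was lost without unstimulated replicate 2 or 21h10 replicate 1 of that dose (edgeR adjusted p up to 0.0708) and with mapped-read library sizes (0.09, edgeR adjusted p = 0.208).

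In experiment 2 Tbx21 rose on the TMM scale in all 4 treated groups, by log2 fold changes of 0.40 and 0.43 with mIL-21 and 0.50 and 0.33 with 21h10 at the lower and the higher dose (edgeR adjusted p = 0.00138, 0.000824, 0.000217 and 0.00594). None of these 4 rises passed with mapped-read library sizes, at 0.22, 0.21, 0.23 and 0.03, or with limma on log2(RPKM + 1). The rise with 100 nM 21h10 was also lost without 21h10 replicate 1 of that dose (0.30, edgeR adjusted p = 0.0548). The median of all genes in the 4 comparisons was -0.32 to -0.19 when TMM was left out, against -0.0169 to -0.0023 with it, and 23.2% to 29.7% of the called genes were then higher than in unstimulated cells, against 48.7% to 50.3%. The rises are therefore rises relative to the median gene.

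Averaged over its 4 treated groups, Eomes fell by 0.34 on the log2 scale in experiment 1 and rose by 0.45 in experiment 2 (edgeR adjusted p = 4.7e-07 and 0.000168), where 84.3% and 57.5% of genes passed. These averages hold opposite signs, since in experiment 1 Eomes rose with 100 pM mIL-21 and in experiment 2 it fell with both mIL-21 doses, and the rise in experiment 2 is carried by the 2.03 of 100 nM 21h10. Tbx21 fell by 0.12 in experiment 1 (edgeR adjusted p = 0.0244) and rose by 0.42 in experiment 2 (edgeR adjusted p = 0.000122). The first Tbx21 value did not pass with DESeq2 (adjusted p = 0.0716) or without unstimulated replicate 1 or 2, 1 nM mIL-21 replicate 1 or 100 pM mIL-21 replicate 2 (edgeR adjusted p up to 0.162). The second did not pass with mapped-read library sizes (0.17, edgeR adjusted p = 0.0795). In the fit of all 20 libraries the mean response was higher in experiment 2 than in experiment 1 for both genes, by 0.73 for Eomes and 0.47 for Tbx21 (edgeR adjusted p = 1.9e-07 and 3.3e-05), as 64.7% of genes passed that test.

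The step from the lower to the higher dose of a cytokine was compared within each experiment. From 100 pM to 1 nM, Eomes fell 1.69-fold with mIL-21 and 1.91-fold with 21h10 (log2 fold changes -0.76 and -0.93, edgeR adjusted p = 8.2e-09 and 6.1e-10), where 34.5% and 39.2% of genes passed. Tbx21 fell with mIL-21 (-0.16, edgeR adjusted p = 0.0478) and rose with 21h10 (0.48, edgeR adjusted p = 3.5e-06). The fall with mIL-21 lay next to the threshold and was lost without any 1 of 7 of the 10 libraries, among them all 4 at 100 pM, both unstimulated libraries and 1 nM mIL-21 replicate 1 (edgeR adjusted p up to 0.416).

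From 10 nM to 100 nM, Eomes rose 3.05-fold with 21h10 (log2 fold change 1.61, standard error 0.0992, edgeR adjusted p = 1.6e-07), where 5.33% of genes passed. With mIL-21 it differed by 0.06 (95% interval -0.16 to 0.27), and Tbx21 by 0.03 (95% interval -0.16 to 0.22). No gene, 0% of those tested, passed for this mIL-21 step in edgeR, with 361 at an unadjusted p under 0.05, and none passed with DESeq2. Tbx21 with 21h10 differed by -0.17 (95% interval -0.36 to 0.01, edgeR adjusted p = 0.304).

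Across doses, 100 pM 21h10 and 1 nM mIL-21 gave nearby levels of both genes, 8.90 against 7.78 RPKM for Eomes and 21.1 against 21.8 RPKM for Tbx21 as means of 2. The log2 differences were 0.18 for Eomes (95% interval 0.07 to 0.30, edgeR adjusted p = 0.202) and -0.06 for Tbx21 (95% interval -0.19 to 0.06, edgeR adjusted p = 0.788), in a comparison that 0.737% of genes passed.

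The ratio of Eomes to Tbx21 RPKM within a library does not depend on library size or scaling. In experiment 1 it was 0.391 and 0.399 in unstimulated cells, 0.515 and 0.570 with 100 pM mIL-21, and 0.417 and 0.428 with 100 pM 21h10. At 1 nM it was 0.381 and 0.336 with mIL-21 and 0.155 and 0.163 with 21h10. The lowest ratio of the series was thus that of 1 nM 21h10, where Eomes was at its lowest and Tbx21 at its highest mean.

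In experiment 2 the ratio was 0.592 and 0.788 in unstimulated cells. It was 0.431 and 0.379 with 10 nM mIL-21, 0.399 and 0.425 with 100 nM mIL-21, and 0.635 and 0.655 with 10 nM 21h10. With 100 nM 21h10 it was 2.03 and 2.42. Both mIL-21 groups lay below the unstimulated libraries, 10 nM 21h10 lay between the 2 unstimulated libraries, and 100 nM 21h10 lay above all others.

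The ratio was 1.28-fold lower with the designed protein than with mIL-21 at 100 pM and 2.2-fold lower at 1 nM, then 1.59-fold higher at 10 nM and 5.38-fold higher at 100 nM. Permuting the cytokine labels of the libraries within each dose, the mean log2 difference over all 4 doses was 0.39 (exact two-sided permutation p = 0.324), an average of opposite signs. Within experiment 1 it was -0.76 and within experiment 2 it was 1.55, each with an exact two-sided permutation p of 0.0556, the smallest that 36 arrangements allow. The effect in experiment 2 minus that in experiment 1, added after the values were seen, was 2.31 on the log2 scale (exact two-sided permutation p = 0.00154, the smallest that 1296 arrangements allow). Treated and unstimulated libraries differed by -0.10 in log2 ratio within experiments (exact two-sided permutation p = 0.813).

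**Figure D3:**
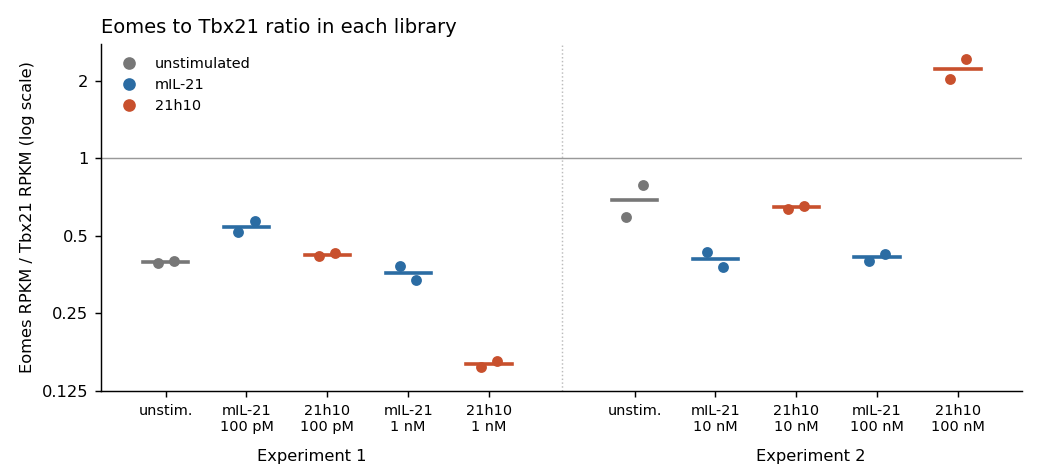
Ratio of Eomes to Tbx21 RPKM in each library on a log axis; points are libraries, bars are means of 2 and the horizontal line marks equal RPKM. The ratio runs from 0.155 with 1 nM 21h10 to 2.42 with 100 nM 21h10, and 18 of the 20 libraries lie below 1.

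The rest of the T-box family was nearly silent. Of 15 other members, Mga, a large protein that pairs a T-box with a MYC-type domain, reached 6.61 to 12.2 RPKM, and the remaining 14 stayed at or below 1.30 RPKM. Only 6 passed the filter on low counts in experiment 1 and 7 in experiment 2. Between the cytokines none passed edgeR's test at 100 pM, 10 nM or 100 nM (0 of 6, 0 of 7 and 0 of 7, with 1 at an unadjusted p under 0.05 each time and 0 by DESeq2). Of all genes, 38.6%, 0.00726% and 8.52% passed at these doses, and 37.7% at 1 nM. Tbx19 was higher with 1 nM 21h10 (log2 fold change 3.84, edgeR adjusted p = 0.000305), at 0.164 RPKM or less in every library of that experiment. With limma on log2(RPKM + 1) and its filter on RPKM, no member passed at 1 nM, and without the filter on low counts 1, 2 and 1 members passed at 100 pM, 1 nM and 10 nM.

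Upstream, a list of 12 genes for signals known to induce T-bet held the receptors for interferon-γ, IL-12 and IL-27 with their STATs and kinases, and Notch. With 21h10, 2 were higher and 8 lower than with mIL-21 at 100 pM (median log2 fold change -0.19, all genes -0.01). At 1 nM, 3 were higher and 5 lower (median -0.03, all genes -0.01). Of all genes, 38.6% and 37.7% passed at these doses. Notch2, a Notch receptor, was lower with 21h10 at 100 pM (-0.60). Stat4, which acts downstream of IL-12, was lower with 21h10 at 1 nM (-0.66, edgeR adjusted p = 2.5e-08). Il12rb2, the inducible IL-12 receptor chain, was higher with 21h10 at both doses (0.33 and 0.60). However, 40.0% of its exonic bases overlap Serbp1 on the other strand, while 26.7% of those of Stat4 overlap Gm28177.

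Ifngr2, the signalling chain of the interferon-γ receptor, turned with the dose range as Eomes did, at -0.66 and -0.68 with 100 pM and 1 nM and 0.66 at 100 nM (edgeR adjusted p = 1.6e-06, 5.1e-06 and 0.0364). At 10 nM it differed by 0.03, and 0 of the 12 genes passed in edgeR or DESeq2, with 1 at an unadjusted p under 0.05. Of all genes, 0.00726% passed in edgeR at that dose. At 100 nM, 2 of the 12 rose and 3 fell, against 8.52% of all genes past the threshold, with Il12rb1, the shared IL-12 and IL-23 receptor chain, at 0.60 and Il27ra, the IL-27 receptor, at -0.45. That count ranged from 0 to 7 when single libraries were left out, falling to 0, 1, 0 and 2 without 21h10 replicates 1 and 2 and mIL-21 replicates 1 and 2 of 100 nM, and was 8 when only the compared groups were fitted.

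Among 18 transcription factors of CD8 fate, 9 were higher and 6 lower with 100 pM 21h10 and again at 1 nM, and 3 were higher and 2 lower at 100 nM. Of all genes, 38.6%, 37.7% and 8.52% passed at these doses. At 10 nM 0 of 18 passed in edgeR or DESeq2, with 1 at an unadjusted p under 0.05, where 0.00726% of all genes passed in edgeR. Hlx, a homeobox partner of T-bet, was 5.33-fold and 3.91-fold higher at the lower doses. Id3, an inhibitor of E proteins tied to memory cells, was lower with 21h10 (-1.74 and -1.45). Klf2, a quiescence and trafficking factor, was lower with 21h10 at 100 pM (-1.60). Mean Klf2 was 4.95 RPKM with 100 pM 21h10 and 16.1 with 100 pM mIL-21, both above the 1.72 of unstimulated cells. Irf4, which scales with T cell receptor signalling, was higher with 21h10 at 1 nM (0.90). Its mean was 52.2 RPKM there, as in unstimulated cells (52.2), against 28.9 with 1 nM mIL-21. At 100 nM, Batf (0.69) and Runx1 (0.64) were higher with 21h10 than with mIL-21, and Klf2 (-0.42) and Bach2 (-0.40) were lower. The count of 5 at that dose was smaller when any 1 of its 21h10 or mIL-21 libraries was left out.

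Downstream, 18 genes known to be bound or activated by T-bet or Eomes moved both ways. At 100 pM, 7 were higher and 5 lower with 21h10 (median log2 fold change 0.02, all genes -0.01), and at 1 nM 6 were higher and 5 lower (median -0.01, all genes -0.01), where 38.6% and 37.7% of all genes passed, split about evenly between the directions. Xcl1, a chemokine for cross-presenting dendritic cells, was 5.41-fold lower at 100 pM and 4.47-fold lower at 1 nM (log2 fold changes -2.43 and -2.16, edgeR adjusted p = 2.4e-11 and 3.6e-07), with 18.7% of its exonic bases overlapped by Gm20743 on the other strand. Cxcr3, the receptor for interferon-induced chemokines and a direct T-bet target, was 2.62-fold and 2.50-fold lower (edgeR adjusted p = 4.5e-11 and 8.1e-10).

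Over the same comparisons Prf1, which encodes perforin, was 2.41-fold and 1.95-fold higher, and Ccl4, an inflammatory chemokine, was 2.26-fold and 5.08-fold higher (edgeR adjusted p from 3.3e-05 to 7e-12). Prf1 went from 18.6 and 18.4 CPM, counts scaled to the TMM-adjusted library size, in unstimulated libraries of experiment 1 to 133.8 and 137.1 with 1 nM mIL-21 and 280.2 and 249.5 with 1 nM 21h10. In experiment 2 it went from 18.1 and 16.6 CPM without cytokine to 330.3 and 321.3 with 100 nM 21h10, the highest of the 5 groups in mean. The group with the most perforin transcript was thus the one with the lowest Eomes in experiment 1 and the one with the highest in experiment 2.

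At 10 nM, where Eomes was 1.71-fold higher with 21h10, 0 of 17 tested targets passed between the cytokines in edgeR or DESeq2, with 4 at an unadjusted p under 0.05. Of all genes, 0.00726% passed in edgeR at that dose, so a count of 0 is not unusual. At 100 nM, where Eomes was 5.01-fold higher, 8 of the 17 targets were lower and 2 higher with 21h10 (median -0.41, all genes 0.00), against 4.52% of all genes called lower and 4.01% called higher. Of the genes called at this dose 47.0% were higher with 21h10, and 30.2% with mapped-read library sizes, where 8 targets were lower and 1 higher. Ccl5 (-0.90, edgeR adjusted p = 0.000135), Klrd1, the CD94 receptor chain (-0.89, edgeR adjusted p = 3.1e-05), Ccl3 (-0.83) and Cxcr3 (-0.80) were the 4 largest of the 10. Prf1 was higher (0.40, edgeR adjusted p = 0.0147). Cxcr3 levels were 29.7 and 29.0 CPM with 100 nM 21h10 and 50.2 and 51.8 with mIL-21, without overlap.

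**Figure D4:**
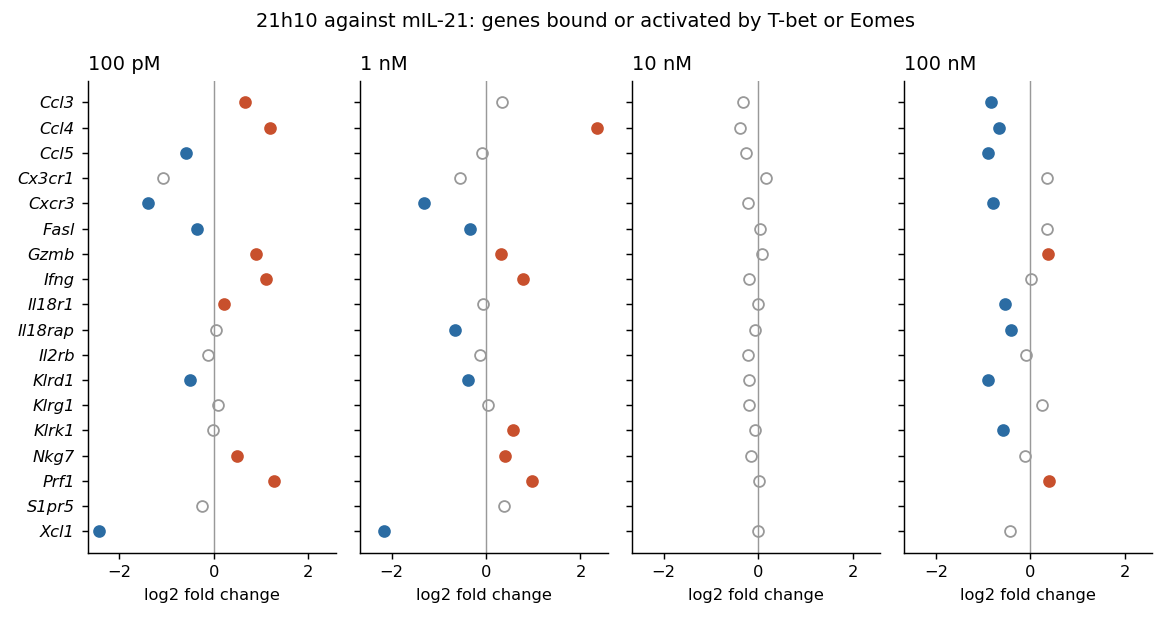
Difference between the cytokines, 21h10 over mIL-21 in log2, at each dose for 18 genes bound or activated by T-bet or Eomes; filled orange points were higher and filled blue points lower past an edgeR adjusted p of 0.05, and open grey points did not pass. At 100 nM 8 of 17 tested genes lie to the left as filled points, where 4.52% of all genes were called lower. At 10 nM none is filled, where 0.00726% of all genes passed.

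Other genes with a pattern like each factor were named by the Pearson correlation of group mean log2 CPM, centred within each experiment, over the 10 groups, as a description. Of 3103 genes compared with Eomes, the closest were Dusp10, a phosphatase of stress kinases (r = 0.957), Epas1, which encodes HIF-2α (0.938), 9430020K01Rik (0.906), N4bp1 (0.853) and Trat1, a T cell receptor adaptor (0.833). All 5 were higher with 100 nM 21h10, by log2 fold changes of 1.33 to 3.02, which follows from their selection over the same groups. None passed at 10 nM (edgeR adjusted p from 0.413 to 0.912), where 0.00726% of all genes passed. At 1 nM, where Eomes was lower with 21h10, so were Dusp10 (-0.59), Trat1 (-1.47), 9430020K01Rik (-0.26) and Epas1 (-0.20), and N4bp1 differed by 0.01 (edgeR adjusted p = 0.876). The 1 nM groups were also among those used to select these genes, so this likeness is no independent result.

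Of 10138 genes compared with Tbx21, the closest were Pik3r5, a regulatory subunit of phosphoinositide 3-kinase γ (r = 0.938), Hipk3 (0.937), Sec16a (0.924), Ttc14 (0.919) and Rnf149 (0.912), the last 2 sharing 11.9% and 24.9% of their exonic bases with overlapping genes. All 5 were higher with 1 nM 21h10, by 0.26 to 0.69, which again follows from the selection. Tbx21 spanned 0.60 on the log2 scale over the centred group means and Eomes 2.53. With 10 groups that share libraries' depth and scaling, and with the highest Eomes group far from the rest, these correlations rest on few points.

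**Figure D5:**
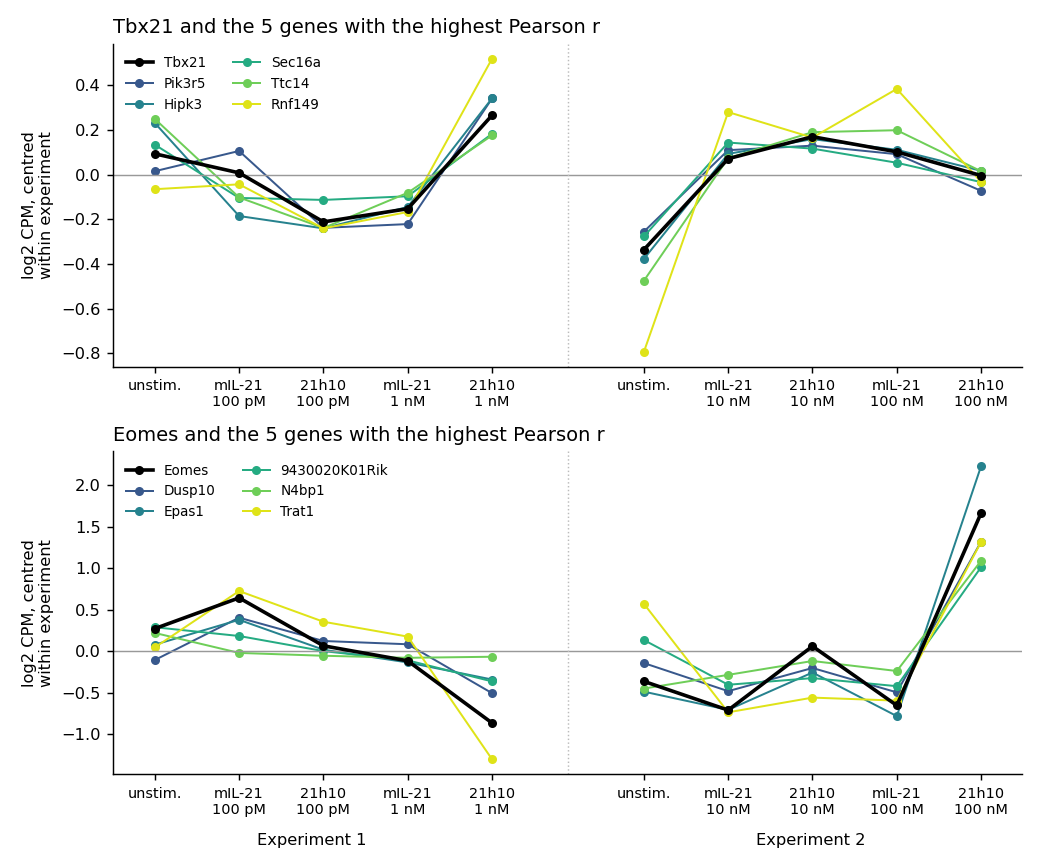
Group mean log2 CPM, centred within each experiment, of Tbx21 (upper) and Eomes (lower) in black with the 5 genes of highest Pearson r in colour; lines only join the groups and the panels have different scales. The Eomes panel is led by the point for 100 nM 21h10, and Tbx21 spans 0.60 against 2.53 for Eomes.

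Among markers of other cells, the summed B cell markers (3.09 to 10.5 RPKM, mostly Cd79b) were at 9.99 to 10.5 with 100 pM mIL-21, where Eomes was highest in experiment 1, and at 3.97 to 4.17 with 1 nM 21h10, where it was lowest. In experiment 2 the B cell sum was 3.24 to 4.03 RPKM with 100 nM 21h10, where Eomes was at its peak. It was 4.01 to 4.24 with 100 nM mIL-21 and 6.25 to 8.30 in unstimulated cells. The NK cell sum was 15.9 to 16.7 RPKM with 100 pM mIL-21 and 9.92 to 10.12 with 1 nM 21h10. With 100 nM 21h10 it was 9.77 to 11.1, against 9.19 to 10.12 with 100 nM mIL-21. The myeloid sum, nearly all Itgam, was at most 0.805 RPKM in unstimulated libraries and between 2.84 and 16.6 with cytokine, while Csf1r and Lyz2 were at most 0.0128 and 0.232 RPKM and S100a8 had no reads. In such bulk libraries fewer cells of a type and less RNA per cell cannot be told apart, and the part of these shifts in the Eomes and Tbx21 values was not tested.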

How the data were processed

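Murine CD8+ T cell RNA was sequenced on a NovaSeq in 20 libraries. Per the labels and the study's methods, the authors aligned reads to mm10 (GRCm38) with TopHat2 2.0.11, counted reads on exons and deposited, per transcript, raw read counts and RPKM values. The submitters' processing notes also name Bowtie2 2.2.6, SAMtools 0.1.8 and bedtools 2.25.0; the counting rule and use of strand are not given in the sources used here. The title label h10 was read as 21h10 and WT as mIL-21.

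The longest transcript stood for each gene. Each experiment's 10 libraries were fitted together with edgeR 4.0.16 (R 4.3.3): filterByExpr (minimum count 10, minimum total 15), TMM, glmQLFit and glmQLFTest, with Benjamini-Hochberg adjustment over 13974 and 13772 genes; group was the only term. Biological coefficients of variation were 4.32% and 8.80%, and root mean square log2 differences between duplicates were 0.252 to 0.331 and 0.403 to 0.513. No 2 libraries were identical (0 pairs). The script was tested on simulated data. The experiments were compared in a fit of all 20 libraries (14530 genes). Ratios were tested by exact permutation (SciPy 1.17.1). Alternatives were DESeq2 1.42.0, no count filter, limma 3.58.1 on log2(RPKM + 1) for genes of at least 1 RPKM in at least 2 libraries, only the compared groups, a replicate block, library sizes from the mapped reads that the deposited counts and RPKM imply, the most-read transcript and leaving out each library. Exon overlap was taken from GENCODE M21 (GRCm38) and copies from BLAST 2.17.0 (at least 95% identity over 100 bases).

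Named from the lists were up to 4 genes per list and dose with the largest change past the threshold, with Ifngr2 and Prf1 also given at other doses and some genes not reported here; likeness took the 5 highest correlations among genes of mean RPKM at least 1 and at least 0.5 times the member's range. The members and lists were chosen with earlier results of these data known.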

Additional observations from a re-analysis of the deposited data

Results flagged for a closer look

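Several effects differed between doses or experiments by a test of the difference itself. The effect of 21h10 against mIL-21 on Tbx21 was higher by 0.64 on the log2 scale at 1 nM than at 100 pM (edgeR adjusted p = 4.2e-05). That on Eomes was higher by 1.55 at 100 nM than at 10 nM (edgeR adjusted p = 2.3e-05).

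Between experiments, and so between dose ranges, the mean response to cytokine was higher in experiment 2 by 0.73 for Eomes and by 0.47 for Tbx21 (edgeR adjusted p = 1.9e-07 and 3.3e-05), where 64.7% of 14530 genes passed. The Eomes average holds groups of opposite sign in both experiments, with 100 nM 21h10 at 2.03 in experiment 2. With mapped-read library sizes the median of all genes in this comparison moved from -0.02 to -0.19. The mean effect of 21h10 against mIL-21 on Eomes was higher in experiment 2 by 2.18 (edgeR adjusted p = 2.3e-14), and that on the log2 ratio of Eomes to Tbx21 by 2.31 (exact permutation p = 0.00154); both were compared after the values were seen. Different unstimulated cells, sequencing depth and doses went with the experiments and cannot be told apart. Groups of 2 libraries were too small for a test for single libraries far from the others.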

How the results depend on the processing

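The members' 46 comparisons gave 318 values under other tests, filters, scalings, groups and transcripts, of which 297 kept their direction and side of the threshold, and 500 values with a library left out, of which 473 did. No result changed its call or direction with the most-read transcript or without the filter on low counts, other than the counts of other T-box members given in the report. With limma on log2(RPKM + 1), these did not pass: Eomes between the cytokines at 10 nM (0.62), Eomes with 10 nM 21h10 against unstimulated cells (0.14), and Tbx21 against unstimulated cells with 1 nM (0.0871), 10 nM (0.22) and 100 nM (0.0299) 21h10, with 10 nM mIL-21 (0.22) and 100 nM (0.21) and as the mean of experiment 2 (0.17). With mapped-read library sizes the same values, the first excepted, were 0.15, 0.0904, 0.23, 0.0251, 0.22, 0.21 and 0.17. The Tbx21 step of mIL-21 from 10 nM to 100 nM turned to -0.0127 with limma and to -0.0150 with mapped-read library sizes. With DESeq2 the Tbx21 mean of experiment 1 was -0.10. Fitting only the compared groups ended the calls of Eomes with 100 nM mIL-21 against unstimulated cells (-0.27) and of the Tbx21 step from 100 pM to 1 nM with mIL-21 (-0.16, adjusted p = 0.0703), and gave 8 genes for the signals that induce T-bet at 100 nM and 1 other T-box member at 100 pM and at 10 nM. Limma gave 3 signals that induce T-bet and 3 CD8 fate factors at 100 nM, and 1 other T-box member at 100 pM. With mapped-read library sizes 1 and 2 other T-box members passed at 100 pM and 1 nM, and 28.4%, 41.1% and 30.2% of the genes called between the cytokines at 100 pM, 1 nM and 100 nM were higher with 21h10, against 50.9%, 51.9% and 47.0% with TMM. A pseudocount of 1 RPKM moved the log2 ratio difference between the cytokines at 1 nM from -1.17 to -1.04.

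The labels do not say whether replicate numbers 1 and 2 pair the libraries. Same-numbered deviations from the group means correlated at -0.0617 to 0.0293 in experiment 1 (0 of 10 group pairs over 0.1). In experiment 2 they correlated at -0.167 to 0.227 (3 of 10). Such correlations over genes cannot settle whether same-numbered libraries shared a culture or animal. With the number as a replicate block, 45 of the 46 values kept their call and none moved by more than 0.00421; the Tbx21 step from 100 pM to 1 nM with mIL-21 was -0.16 with edgeR adjusted p = 0.0651.

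With single libraries left out, the values of results that changed call or direction ranged as follows. For Eomes they were 0.71 to 0.83 between the cytokines at 10 nM, -0.45 to -0.25 and -0.39 to -0.19 for 10 nM and 100 nM mIL-21 against unstimulated cells, and -0.00143 to 0.12 for the mIL-21 step from 10 nM to 100 nM. For Tbx21 they were -0.25 to -0.19 between the cytokines at 100 pM, 0.13 to 0.22 and 0.22 to 0.43 for 1 nM and 100 nM 21h10 against unstimulated cells, -0.15 to 0.0329 for 100 pM 21h10 against 1 nM mIL-21, -0.25 to -0.0699 for the mIL-21 step from 100 pM to 1 nM, -0.00416 to 0.0655 for that from 10 nM to 100 nM, and -0.14 to -0.0819 for the mean of experiment 1. The log2 ratio of treated against unstimulated libraries ran from -0.22 to 0.00707 within experiments and from -0.22 to 0.24 in experiment 2, and that between the cytokines at 1 nM from -1.26 to -1.08. Counts past the threshold ran from 1 to 6 for the CD8 fate factors and from 0 to 7 for the signals that induce T-bet at 100 nM, and from 0 to 1 at 100 pM and 1 to 4 at 1 nM for the other T-box members, with 4 without 21h10 replicate 1 and 3 without mIL-21 replicate 1 of 1 nM and, at 100 pM, 1 without either 21h10 library of 1 nM. The causes were not tested.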

Other observations

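Against unstimulated cells, averaged over the 4 treated groups, 11 of 18 genes bound or activated by T-bet or Eomes rose and 5 fell in experiment 1, and 10 of 17 rose and 4 fell in experiment 2 (edgeR). Of all genes, 41.3% were called higher and 43.0% lower in experiment 1, and 27.5% and 30.1% in experiment 2. Prf1 rose by log2 fold changes of 2.63 and 4.03. Xcl1 fell, with log2 fold changes of -3.01 and -4.94, as did Cxcr3, at -1.16 and -1.11. The Cxcr3 average of experiment 1 holds opposite signs. Levels were 58.7 and 58.8 CPM with 100 pM mIL-21 against 49.1 and 50.5 without cytokine, and the other treated groups lay below the unstimulated libraries. Ifng, which encodes interferon-γ and shares 25.9% of its exonic bases with Gm49751, differed by -0.17 in experiment 1 (edgeR adjusted p = 0.0644) and rose by 3.57 in experiment 2, to 47.0 to 57.5 CPM in every treated library from 4.19 and 4.75 without cytokine. Ifng and the averaged changes were chosen after their values were seen.

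Among the transcription factors of CD8 fate, 15 of 18 rose and 3 fell in experiment 1, and 12 rose and 3 fell in experiment 2, where 84.3% and 57.5% of all genes passed in either direction. Hlx, the homeobox partner of T-bet, rose from 0.195 and 0.236 CPM in unstimulated libraries to 39.6 and 33.7 with 1 nM 21h10. Id3 fell on average over the 4 treated groups, with log2 fold changes of -1.16 and -3.59. In experiment 1 it was higher with 100 pM mIL-21, at 7.63 and 8.38 CPM against 4.95 and 6.00 without cytokine. The other treated groups of that experiment lay below the unstimulated libraries.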
